A study of Drosophila melanogaster with 6 samples.

Results

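The genes described here are 10 Drosophila genes of the cAMP and CaMKII memory pathways: amn, rut, dnc, Nf1, Pka-C1, Pka-R1, Pka-R2, CaMKII, CrebB and orb2. They were given as a list of names, and a called peak counted for a gene if its midpoint fell inside the span given by the NCBI RefSeq table of Release 6 (dm6). They are 10 of 13922 protein-coding genes on the chromosome arms of the lists, and they took 169 of 28206 peaks. The peaks come from m6A-CLIP, in which RNA fragments are crosslinked by ultraviolet light to an antibody against N6-methyladenosine (m6A), a methyl mark on adenosines of RNA, and are recovered with it. Each of 3 peak lists, called replicates 1, 2 and 3, belongs to 1 CLIP library and 1 unenriched input library with the same number. All 6 libraries are from heads of male and female w1118cs flies on a standard diet, with poly(A)-selected RNA going into the CLIP reaction per the labels, and no age is given. These samples hold no other genotype or treatment, so the libraries form a single group, and no comparison between conditions exists. The labels do not say whether the replicates came from separate cultures of flies, so an SD over lists measures only the spread between these libraries.

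In fly memory research these genes form a connected route. A receptor-driven rise in calcium and G protein signalling activates the adenylyl cyclase Rutabaga (rut), which makes cAMP, and the phosphodiesterase Dunce (dnc) breaks cAMP down. cAMP releases the catalytic subunit of protein kinase A (Pka-C1) from its regulatory subunits (Pka-R1, Pka-R2), and the kinase can act on the transcription factor CrebB. CaMKII, a kinase switched on by calcium and calmodulin, and Orb2, an RNA-binding protein that regulates translation at synapses, are needed for lasting memory in flies. m6A is placed on mRNA by a writer complex that holds Mettl3 and Mettl14, and reader proteins of the YTH family recognise it.

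The lists hold 14329, 7232 and 6645 peaks in replicates 1, 2 and 3. Each peak carries the mean number of CLIP reads and the geometric mean of the input reads per bin of 50 bp. Neither column shows a scaling to library size, so reads of 1 library may be compared among peaks of its list but not as levels across lists. CLIP and input reads come from different libraries. A ratio of them, or CLIP reads above or below input, therefore also depends on the depths of both, as does its spread over lists. The median log2 ratio of all peaks was 0.17, 1.58 and −0.42, so ratios are also given against the list median. Values given below for a region shared by the lists are those of the whole overlapping peaks, which can be wider than the region. The lowest number of CLIP reads per bin of a peak was 7, 25 and 7, and 7 reads have an exact 95% Poisson interval from 2.81 to 14.4, counting error only. The labels give neurons as the cell type but heads as the tissue. Peaks were found in all 3 lists at the neuronal genes nSyb, brp and Syt1, but also at repo, which marks glia, and at ninaE, the main photoreceptor opsin. At elav, a marker of neurons, peaks were found in replicates 1 and 2 only.

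Of the 10 genes, 9 had a peak in at least 1 list and 7 had a peak in all 3, namely rut, dnc, Pka-C1, Pka-R1, Pka-R2, CaMKII and orb2. Among all protein-coding genes 29.3% had a peak in any list and 13.7% had one in all 3. The memory genes are long, with spans from 3953 to 167328 bp and a median of 17890 bp against 2163 bp for all protein-coding genes. Among the 1976 genes with spans of at least 10000 bp, 80.6% had a peak in any list and 51.7% in all 3. Of the memory genes, 9 are that long, 8 of these had a peak in any list and 7 in all 3. Read against all genes of at least 10000 bp, the share with any peak is therefore near the background. The share in all 3 lists is 7 of 9 against 51.7%, with no test made. CrebB had peaks in replicates 1 and 3, amn in replicates 1 and 2, and Nf1 in none.

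Per list, 9, 8 and 8 of the 10 genes had a peak, against 27.3%, 17.6% and 16.9% of all protein-coding genes and 77.0%, 63.9% and 57.3% of those of at least 10000 bp. The number of peaks differed widely among the genes. CaMKII had 26, 6 and 7 peaks in replicates 1, 2 and 3, and Pka-C1 had 22, 6 and 4. dnc, the longest, had 21, 13 and 13. These were followed by Pka-R1 with 11, 5 and 3 peaks, Pka-R2 with 8, 2 and 1, orb2 with 5, 3 and 2, rut with 3, 1 and 1, CrebB with 3, 0 and 1, and amn with 1, 1 and 0.

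No gene had fewer peaks in replicate 1 than in either other list. Over all 10 genes the lists held 100, 37 and 32 peaks, a mean of 56.3 ± 37.9 (SD, n = 3), and the mean was 34.5 without replicate 1. The number in replicate 1 was 2.703 times that in replicate 2 and 3.13 times that in replicate 3, while the whole lists stood at 1.98 and 2.16 times. The excess was uneven. At dnc it was 1.62 times against both other lists, below that of the whole lists. At CaMKII it was 4.33 and 3.71 times, and at Pka-C1 3.67 and 5.50 times. With the same number of peaks taken from each list, lowest deposited p-values first, the mean was 33.3 peaks, and CaMKII had 9, 3 and 7 peaks, Pka-C1 5, 4 and 4, and dnc 10, 12 and 13. Under that setting rut had no peak in replicate 1 and 6 genes still had a peak in all 3 lists.

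**Figure D1:**
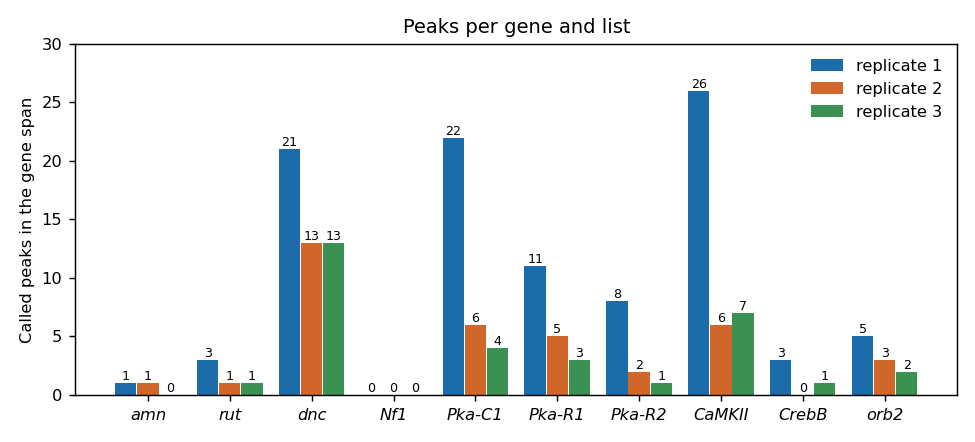
Number of called peaks (y axis) whose midpoint lies in the span of each gene (x axis), 1 bar per list. CaMKII, Pka-C1 and dnc have the most, with 26, 22 and 21 in replicate 1, and Nf1 has none in any list.

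Almost all peaks of a gene lay on the same strand. Of the 169 peaks, only 1 lay against the strand that held the others of its gene, at dnc in replicate 1. Since that strand is the one with most peaks, such a count is low by construction. The share over all protein-coding genes is not given here, so the count does not set the memory genes apart. The RefSeq table used here gives no strand, so the direction of each gene was taken from the strand of most of its peaks: plus for dnc, Pka-R1, CrebB and amn, and minus for rut, Pka-C1, Pka-R2, CaMKII and orb2. Positions below run from 0% at the start of the span in that direction to 100% at its end. The span begins at the outermost start of any transcript and includes introns, and RefSeq lists from 1 transcript for amn to 17 for dnc and 18 for Pka-R1, so a position says nothing about which transcript or exon was bound.

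Many peaks of the long memory genes lay close to the beginning or the end of the span. In replicate 1, 7 of the 8 long genes with a peak had one within 500 bp of the start of the span, all but Pka-C1. In replicate 2 it was 4 of 7 genes (rut, Pka-R1, CaMKII and orb2), and in replicate 3 it was 6 of 8, the same as in replicate 1 without dnc. Of all protein-coding genes of at least 10000 bp with a peak in the list, 60.9%, 53.6% and 49.5% had such a peak. Within 500 bp of the end, it was 4 of 8, 3 of 7 and 3 of 8 memory genes, against 18.6%, 8.30% and 7.71% of those genes. Pka-C1, Pka-R1 and CaMKII had a peak there in all 3 lists, and Pka-R2 in replicate 1.

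**Figure D2:**
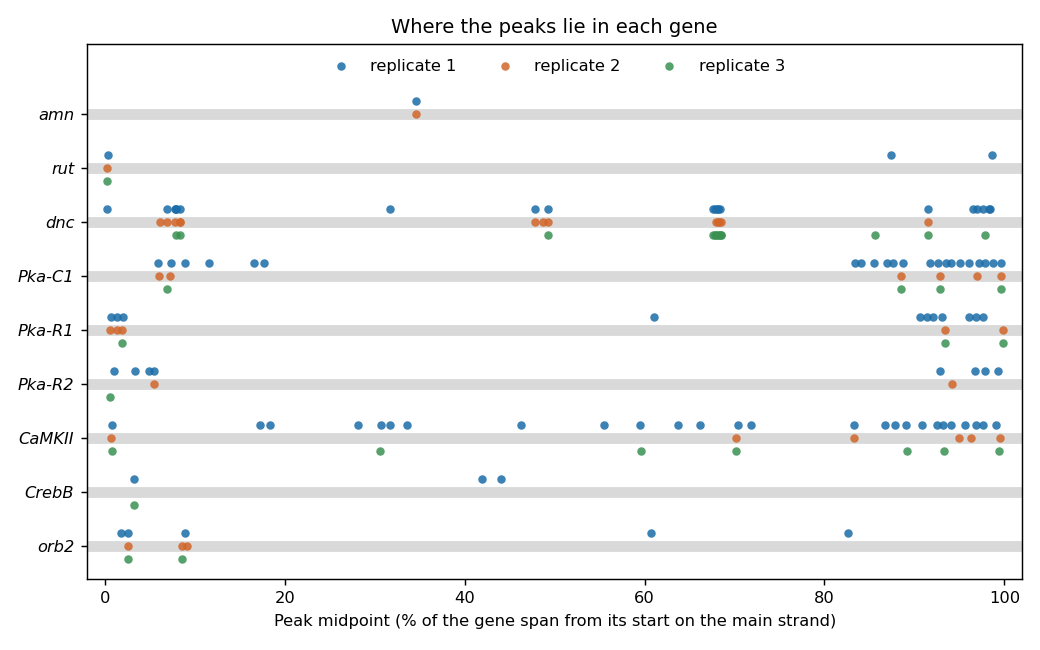
Midpoint of each peak on the main strand of its gene, in percent of the gene span from its start (x axis), for the 9 genes with a peak, coloured by list. Peaks of Pka-C1, Pka-R1 and Pka-R2 lie at both sides of the span, with 1 peak of Pka-R1 between, those of CaMKII run along the whole span in replicate 1, and those of dnc form a dense group near 68% of the span.

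amn encodes a precursor of neuropeptides and is the ligand gene of the list. It had 1 peak each in replicates 1 and 2, at the same bin of the plus strand of chromosome X, 19887451 to 19887500. That bin had 12 and 26 CLIP reads against 4 and 8 input reads. It also falls within Hers, a much longer gene whose other peaks, 2 in replicate 1 and 1 in replicate 2, are on the plus strand as well, so strand does not tell which gene the reads come from. No peak can therefore be given to amn alone.

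rut encodes the calcium/calmodulin-responsive adenylyl cyclase. Its peaks lay at the outermost start of the span in all 3 lists, on the minus strand of X. The bin 14825951 to 14826000, 73 bp inside the span, was called alone in replicates 2 and 3 and as part of a peak of 150 bp in replicate 1. There, CLIP reads per bin were 8.67, 45 and 7, with 5.31, 5 and 4 per bin in the input. In replicate 3 this is the lowest number of CLIP reads that the list holds, and in replicate 2 it is above 61.8% of the peaks. The log2 ratio of CLIP to input reads, each with 1 read added, was 0.61, 2.94 and 0.68. The only other peaks of rut were in replicate 1, near 87.4% and 98.6% of the span, with 7 CLIP reads each. So the 1 region of rut that recurred is the bin at its start.

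dnc encodes the cAMP phosphodiesterase and has the longest span of the 10 genes. Its peaks lay in separate groups along 167328 bp. When peaks of any list were joined across gaps of up to 500 bp, dnc had 17 groups, of which 5 held peaks of all 3 lists. The densest ran from 3289501 to 3291150 on the plus strand of X, between 67.6% and 68.6% of the span, with 5, 4 and 7 peaks in replicates 1, 2 and 3. It held 4 of the 6 dnc regions called in all 3 lists, of which a neighbouring pair share their peaks of replicates 1 and 2 and are not separate measurements. At 3289951 to 3290100, the strongest of them, CLIP reads per bin were 18.4, 53 and 12.3, with 2.25, 1.62 and 2.29 per bin in the input. The values of replicates 1 and 2 are means over wider peaks, 3289851 to 3290200 and 3289901 to 3290200. The log2 ratio there was 2.58, 4.37 and 2.02, a mean of 2.99 ± 1.23 (SD, n = 3). It stood above the median ratio of its list by 2.41, 2.78 and 2.43, or 2.54 ± 0.21, the highest of all regions of the 10 genes shared by the 3 lists. Further along, the bin 3290951 to 3291000 was called in replicates 2 and 3 with more input than CLIP reads, 49 CLIP against 89 input reads and 22 against 106. The same stretch of dnc thus held peaks with ratios far above and below their list medians.

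Further regions of dnc called in all 3 lists were the bin 3258801 to 3258850, at 49.2% of the span, and the bin 3329501 to 3329550, at 91.5%. The bin at 49.2% was called with the same ends in each list, with 24, 40 and 13 CLIP reads against 3, 5 and 3 input reads. At 91.5% the peaks had 17, 30 and 12 CLIP reads per bin, with 2.45, 4 and 2 per bin in the input. Both had CLIP reads well above input reads in each list. The 6, 1 and 3 dnc peaks nearest the end of the span, the one at 91.5% included, also lie in the span of the long non-coding RNA gene CR44886, whose strand is not given, so their reads cannot be given to dnc alone. Within 500 bp of the start of the span dnc had 1 peak, in replicate 1, with 9 CLIP reads against 3 input reads. On its early side, peaks of all 3 lists lay further in, between 7.78% and 8.37% of the span, where 4, 3 and 2 peaks were called, and replicates 1 and 2 also shared a bin at 6.86%. The peak against the main strand, at 3217001 to 3217050 on the minus strand in replicate 1, had 8 CLIP reads against 27 input reads.

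Nf1 encodes a Ras GTPase-activating protein, the fly counterpart of human neurofibromin, which is needed for cAMP signalling and memory in flies. No peak had its midpoint in its span of 12725 bp on 3R in any list, and none lay within 500 bp of it. The nearest peaks were 12713, 5164 and 58914 bp away in replicates 1, 2 and 3. Of all genes of at least 10000 bp, 77.0%, 63.9% and 57.3% had a peak in the list. Their spans reach 1965857 bp, and the share among genes close to Nf1 in length was not taken. Reads outside peaks are not in the lists, so the RNA level of Nf1 and the depth there are unknown, and the lack of a peak does not show a lack of m6A.

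Pka-C1 encodes the catalytic subunit of protein kinase A, and its peaks fell into 2 stretches of the minus strand of 2L. The stretch at the end of the span, 9682351 to 9685150, held 16, 4 and 3 peaks, and that near the start, 9697301 to 9698350, held 4, 2 and 1. A further pair of peaks was called in replicate 1 only, and no peak lay between 17.9% and 83.3% of the span. Of its 4 regions called in all 3 lists, 3 are in the end stretch. The region with the highest mean ratio, 9683501 to 9683550, had 10.7, 35 and 20 CLIP reads per bin, with 10.3, 4 and 5 per bin in the input. The values of replicate 1 are means over its wider peak, 9683501 to 9683650. Its log2 ratio was 0.05, 2.85 and 1.81, a mean of 1.57 ± 1.41 (SD, n = 3). Over that wider peak of replicate 1 the CLIP and input reads were nearly equal, while in the other lists CLIP reads in the bin were well above input. The region with the most reads by rank, 9698101 to 9698150 near the start, had 17, 38.3 and 20 CLIP reads per bin, with 8.58, 15.7 and 11 per bin in the input. The values of replicates 1 and 2 are means over wider peaks, 9697901 to 9698200 and 9698001 to 9698150. There the log2 ratio was 0.91, 1.23 and 0.81, and it differed from the list median by 0.74, −0.35 and 1.22, so only replicate 2 had it below the median.

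Pka-R1 encodes the type I regulatory subunit, which holds the catalytic subunit inactive until cAMP binds. It too had peaks at both sides of the span, on the plus strand of 3L. At the start, from 20816201 to 20816600, 3, 3 and 1 peaks were called, and at the end, from 20834101 to 20836050, 7, 2 and 2. The region 20816451 to 20816550 at the start had 22, 50.5 and 12 CLIP reads per bin, with 7.31, 7.48 and 3 per bin in the input, with log2 ratios of 1.47, 2.60 and 1.70. The region 20834701 to 20834750, 1298 bp before the end, had 11.7, 28 and 8 CLIP reads per bin, with 6.69, 22 and 18 per bin in the input, with log2 ratios of 0.72, 0.33 and −1.08. In each list the region at the start had more CLIP reads and the higher ratio of the 2.

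A bin at the annotated end of Pka-R1 lies at the edge of the counting rule. Replicates 2 and 3 have a peak at 20836001 to 20836050 with 43 and 7 CLIP reads against 3 and 2 input reads. Replicate 1 has a peak of 100 bp from the same position, with 12.5 CLIP reads per bin, with 2.24 per bin in the input, whose midpoint falls just beyond the annotated end and which is not counted for Pka-R1. All 3 lists thus called this bin, with log2 ratios of 2.06, 3.46 and 1.42. Within 500 bp outside the 10 spans there were 3 peaks in all, each in replicate 1, and the others were beside Pka-R2 and CaMKII. That beside Pka-R2 was on the plus strand, against the peaks of the gene.

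Pka-R2 encodes the type II regulatory subunit. It had peaks at both sides of the span on the minus strand of 2R, but no region called in all 3 lists. At the start side, the interval 10024251 to 10024350 was called in replicates 1 and 2, with 12.5 and 28 CLIP reads per bin, with 2 and 4.24 per bin in the input. The only peak of replicate 3, at 10025851 to 10025900, had 8 CLIP reads against 8 input reads and no counterpart in the other lists. The most CLIP reads at Pka-R2 were in replicate 2, 45 against 11 input reads at 9995751 to 9995800, where neither other list had a peak. Pka-R2 therefore counts among the genes with a peak in all lists, although the 3 lists share no position there.

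CaMKII had the most peaks of the 10 genes in replicate 1, 26 on the minus strand of chromosome 4, which ranked 31 among the 3794 genes with a peak in that list. In replicates 2 and 3 it had 6 and 7 peaks. Replicate 1 had 478 peaks on chromosome 4 as a whole, against 111 and 132 in the other lists. The part of this chromosome's excess in the CaMKII counts was not tested. Its peaks ran along the span, with 10 groups at a gap of up to 500 bp, and 3 of these held peaks of all lists. The largest group, at the end of the span from 1035301 to 1037750, had 11, 3 and 3 peaks.

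The region of CaMKII with the most reads by rank was at the start, 1053501 to 1053600, 103 bp inside the span. There, CLIP reads per bin were 39, 44.7 and 12, with 13.9, 22.5 and 10.4 per bin in the input. The 39 reads were the most of any peak of the 10 genes in replicate 1, and the log2 ratio was 1.43, 0.96 and 0.19. The region with the highest mean ratio, 1040751 to 1040800 at 70.2% of the span, had 21, 43 and 7 CLIP reads per bin, with 7.75, 10 and 4 per bin in the input, and its log2 ratio was 1.33, 2.00 and 0.68. The third, 1035351 to 1035400, 63 bp before the end, had ratios of −0.31, 1.05 and −0.84 and differed from the list median by −0.48, −0.53 and −0.42. CaMKII peaks had the highest median input of the long memory genes, 14.4, 16 and 15 input reads per bin, against 8, 13 and 14 over all peaks of the lists.

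CrebB encodes the fly CREB transcription factor, a target of protein kinase A. It had 3 peaks in replicate 1, none in replicate 2 and 1 in replicate 3, on the plus strand of X. The bin 18366701 to 18366750, at 3.2% of the span, was called in replicates 1 and 3, with 12 and 7 CLIP reads against 2 and 1 input reads. The other peaks of replicate 1 were bins near 42% and 44% of the span, with 7 and 14 CLIP reads against 1 and 4 input reads. All 4 peaks had few reads and CLIP reads above input, and none lies in the span of another protein-coding gene.

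orb2 encodes an RNA-binding protein of the CPEB family. All of its 10 peaks over the 3 lists, on the minus strand of 3L, also fall within CG43783, a longer gene that overlaps orb2, and none of CG43783's peaks lies outside the orb2 span. Reads could therefore not be given to orb2 alone. Both regions called in all 3 lists are near the start. At 8954001 to 8954050, called with the same ends in each list, there were 22, 64 and 15 CLIP reads against 6, 5 and 3 input reads, and the log2 ratio was 1.72, 3.44 and 2.00, a mean of 2.38 ± 0.92 (SD, n = 3). The 64 reads were the most of any peak of the 10 genes in replicate 2. The region 8952951 to 8953000 had 12.3, 28 and 8 CLIP reads per bin, with 3.78, 8 and 7 per bin in the input, and a ratio of 1.48, 1.69 and 0.17. The region nearer the start had the higher ratio in each list.

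Over the 10 genes, 18 regions were called in all 3 lists: 6 in dnc, 4 in Pka-C1, 3 in CaMKII, 2 each in Pka-R1 and orb2, and 1 in rut. These 6 genes compare with 12.2% of all protein-coding genes and 46.0% of those of at least 10000 bp that held such a region. With 2 lists in place of 3, the number of regions was 31 without replicate 3, 25 without replicate 2 and 20 without replicate 1. Requiring the lists to share 50% of each peak left 7 regions, equal list lengths left 11, and the 50% of peaks with the lowest p-values left 3. Relative to the median of their list, 15 of the 18 regions had a mean ratio above it, and 11 were above it in every list, all 6 of dnc among them. Of these 6, a neighbouring pair share their peaks of replicates 1 and 2. The median is over all peaks of a list, shared or not. The same count over the shared regions of all genes was not made, so these numbers do not set the memory genes apart.

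**Figure D3:**
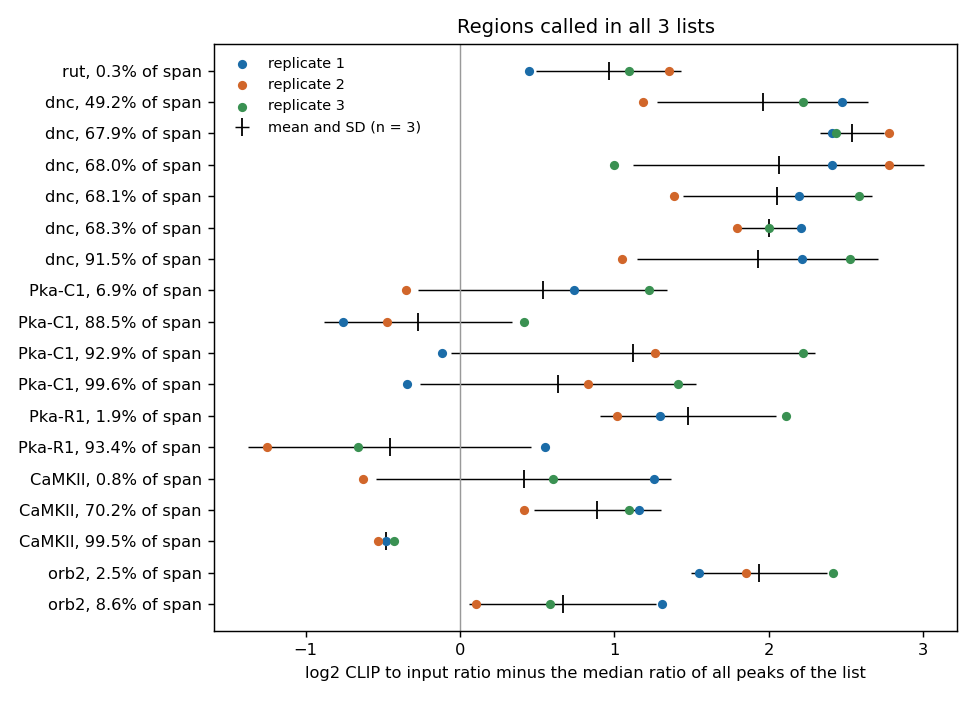
log2 CLIP to input ratio minus the median ratio of all peaks of the same list (x axis) for the 18 regions called in all 3 lists, each named by gene and position in the span. Points are the lists, the bar is the mean with its SD (n = 3), and all 6 dnc regions lie above 0 in each list, while the CaMKII region at 99.5% lies below 0 in each.

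Peaks of the memory genes had a median of 9, 38 and 8 CLIP reads per bin, against 10, 38 and 10 over all peaks, and their highest was 39, 64 and 22, against 32824, 61522 and 16876. In replicates 1, 2 and 3, 24, 4 and 9 of the peaks, or 24%, 10.8% and 28.1%, had exactly the lowest number of CLIP reads in the list, against 19.9%, 5.13% and 17.9% of all peaks. Median input was 7.70, 5 and 4 reads per bin, against 8, 13 and 14. The median log2 ratio of CLIP to input was 0.38, 2.46 and 0.83, against list medians of 0.17, 1.58 and −0.42. Input is a geometric mean in peaks of several bins, which raises their ratio, but the mean of the 3 medians was 1.20 in peaks of 1 bin only and 1.22 ± 1.094 (SD, n = 3) in all. Pooled over the 10 genes, the median was above that of the list in each list, by 0.21 in replicate 1 and by 0.88 and 1.24 in the others. Their lower input in replicates 2 and 3 moves with this, and its part in the result was not tested. No such pooled median was taken for all genes of at least 10000 bp. In the first 20% of the span the median ratio of those genes was above that of the memory genes in each list. In the middle and the last 20% it was below, by little at the end in replicates 1 and 2. The memory genes were not alike in their ratios. dnc held 13 of the 37 and 13 of the 32 peaks of replicates 2 and 3. Its medians were 1.30, 2.77 and 1.58, above the list median in each list. CaMKII, with medians of −0.30, 0.85 and −0.71, lay below it in each list, and Pka-C1 and Pka-R1 lay below it in replicate 1, at −0.13 and 0.12. CLIP reads were below input reads in 42, 1 and 6 of the 100, 37 and 32 peaks, against 43.6%, 16.6% and 55.4% of all peaks.

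**Figure D4:**
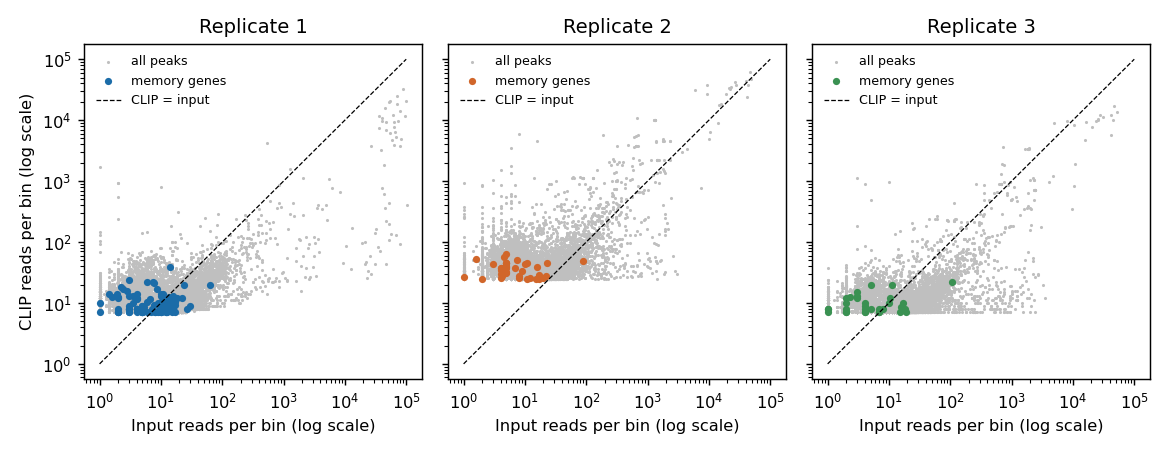
CLIP reads per bin (y axis) against input reads per bin (x axis), both on log scales, for all peaks (grey) and for peaks of the 10 genes (colour), 1 panel per list. Peaks of the 10 genes lie near the lower edge of each list, which is at 7, 25 and 7 CLIP reads, and all but 3 have at most 30 input reads per bin.

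The ratio was set against the position in the span. In the first 20% of the span, the peaks of the memory genes had a median log2 ratio of 1.32, 2.53 and 0.83, and in the last 20% it was −0.13, 1.08 and 0.00. Median CLIP reads per bin were 10, 38 and 9 at the start and 8.5, 28.5 and 8.5 at the end. Median input was 3.78, 5 and 4 at the start and 10, 11.5 and 7 at the end. CLIP medians were thus higher at the start and input medians higher at the end in each list. The start was also higher than the end over all genes of at least 10000 bp, with medians of 1.64, 2.88 and 1.26 at the start and −0.15, 1.07 and −0.75 at the end. Between them, the middle of the span had a median ratio of 0.85, 2.77 and 1.42 in the memory genes, against 0.21, 1.81 and 0.16 in the long genes. The middle was thus the highest of the 3 parts for the memory genes in replicates 2 and 3, whereas in long genes it lay between start and end in each list. Of the 9 and 11 middle peaks behind these values in replicates 2 and 3, dnc held 7 and 8, and the difference from long genes was not tested.

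The genes differed in this order. Start minus end of the median ratio was 1.53, 0.70 and 1.53 for Pka-R1 in replicates 1, 2 and 3, and 1.40 and 0.53 for Pka-R2 in the lists where both sides had a peak. For CaMKII it was 0.03, 0.24 and 1.03, for dnc 1.15, −0.17 and 0.22, and for Pka-C1 −0.28, 0.32 and −0.19. In replicate 1 alone it could be taken for orb2, at 1.94, and rut, at −0.19. Both regulatory subunits were thus higher at the start in each list that allowed the comparison, while the catalytic subunit changed sign between lists. Some medians rest on few peaks: 1 start and 1 end peak for Pka-R2 in replicate 2, and 1 and 2 for Pka-R1 and 1 and 3 for Pka-C1 in replicate 3. CaMKII had 1 start peak in replicates 2 and 3, and dnc had 1 end peak in replicate 2. All end peaks of dnc also lie in the span of CR44886, so its values are not those of dnc alone. The bin at the annotated end of Pka-R1 had a ratio of 3.46 in replicate 2, above its start peaks, at most 2.96. Its ratio was 1.42 in replicate 3, below the 1.70 at the start. Its replicate 1 peak, at 2.06, is not counted here. The start was higher in 5 of 7, 4 of 5 and 3 of 4 memory genes, against 87.3% of 482, 79.7% of 187 and 76.7% of 146 long genes. The mean over lists of the median difference was 0.70 ± 0.42 (SD, n = 3).

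**Figure D5:**
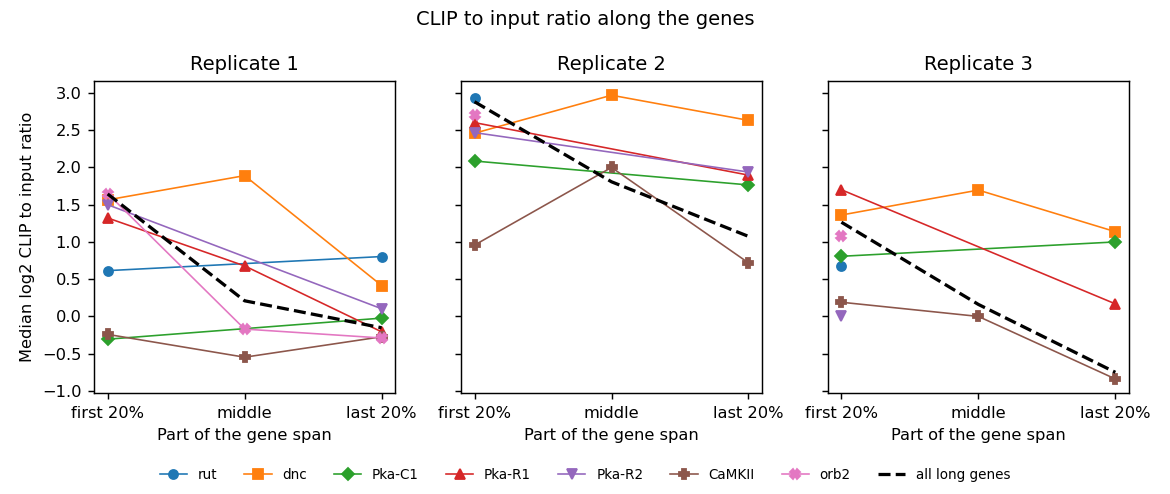
Median log2 CLIP to input ratio (y axis) of peaks in the first 20%, the middle and the last 20% of the gene span (x axis), 1 panel per list, for 7 memory genes and for all protein-coding genes of at least 10000 bp (dashed). The dashed line is higher at the start than at the end in each list, and so is Pka-R1, whereas Pka-C1 is nearly level and dnc is highest in the middle.

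Pooled over the 10 genes, a larger share of peaks lay at the end of the span than in long genes, but not in each gene. CrebB and amn had no peak in the last 20%, and rut and orb2 had one there in replicate 1 only. The last 20% of the span held 48.5%, 32.4% and 34.4% of their main-strand peaks, against 33.1%, 21.8% and 20.7% for all genes of at least 10000 bp, with no test made. Pka-C1 and CaMKII held most of these, 16 and 12 of 48 in replicate 1, 4 and 4 of 12 in replicate 2, and 3 and 3 of 11 in replicate 3. The first 20% held 27.3%, 43.2% and 31.3%, against 34.3%, 45.7% and 45.8%. The median position of all peaks of the memory genes was 69.3%, 48.7% and 68.0% of the span, and with equal list lengths the mean of the lists moved from 62.0% to 48.9%.

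The share of peaks that recurred in another list was set beside that of the whole lists. Of the 37 peaks of replicate 2, 31 (83.8%, with a Wilson 95% interval of 68.9 to 92.3) shared at least 1 bp and the strand with one in replicate 1, against 77.5% of the whole list. Of the 32 of replicate 3, 25 (78.1%, 61.2 to 89.0) overlapped replicate 1, against 77.8%, and 20 (62.5%, 45.3 to 77.1) overlapped replicate 2, against 70.2%. In each of these 3 cases the interval holds the share of the whole list. The intervals treat peaks as independent, so this is not a test of likeness. Read from the longer list, 29 and 24 of the 100 peaks of replicate 1 (29% and 24%) overlapped replicates 2 and 3, against 33.9% and 28.9% of the whole list. Of the 37 of replicate 2, 19 (51.4%) overlapped replicate 3, against 59.3%. The intervals cover counting error only and can be too narrow, since neighbouring peaks are not independent.

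Other genes of the same pathways were looked up from 6 lists with 65 names, of which 64 matched 1 gene each in the RefSeq table. Of the 64 genes, 36 (56.3%) had a peak in all 3 lists, 9 in 2, 8 in 1 and 11 in none, against 13.7% of all protein-coding genes in all 3. Of the 44 with a span of at least 10000 bp, 30 (68.2%) had one in all 3 lists, against 51.7% of all such genes. Among 9 other cyclases and phosphodiesterases 6 had a peak in all lists, the most shared regions being in Pde1c with 3 and Pde6 with 2, whose peaks in replicate 3 all lie in another gene span too, followed by 1 in each of the other 4. Ac78C and Pde8 had no peak in any list. Among 6 further genes for subunits and anchors of protein kinase A, 4 had a peak in all lists, with 8 shared regions in the anchor gene rg, all of them also in another gene span, 2 in Pka-C3 and 1 each in Akap200 and spoon.

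Among 18 genes listed as cAMP-linked G proteins, receptors and targets, 13 had a peak in all lists, and 9 of the 13 with a span of at least 10000 bp did. Ggamma1 had 9 shared regions, Galphaq 7, all also in another gene span, and Gbeta13F 4. Galphas, the G protein that activates adenylyl cyclase, had peaks in replicate 1 only. Of 12 calcium and calmodulin genes 4 had a peak in all lists, with 12 shared regions in Cam, the calmodulin gene, 6 in CASK, a scaffold gene, and 1 each in CaMKI and the potassium channel gene eag. CaMKI, on chromosome 4 like CaMKII, had 14, 2 and 3 peaks. Of 9 partners in local translation 3 did, with 22 shared regions in Lk6, a kinase gene, 5 in pum, which encodes an RNA-binding repressor of translation, and 2 in Tob, while orb, the other CPEB gene, had no peak. Of 10 other memory genes 6 did, with 11 shared regions in 14-3-3zeta, 2 in the protein kinase C gene Pkc53E and 1 each in the cell adhesion genes Fas2 and klg. Gene length differs among the lists. Of genes of at least 10000 bp, 6 of 9 cyclases and phosphodiesterases and 3 of 4 protein kinase A genes had a peak in all 3. The same held for 3 of 7 calcium and calmodulin genes, 3 of 5 translation partners and 6 of 6 other memory genes. Of all genes that long, 51.7% did, and no difference was tested.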

How the data were processed

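Per the labels, m6A-CLIP and input libraries were made from fly heads. Per the submitters' processing notes, STAR 2.7.5a and the builds dm6 and BDGP6 were named. Peak caller and thresholds are not given in the sources used here. As signal, the authors deposited CLIP reads per bin of 50 bp, averaged over a peak. They also deposited input reads per bin as a natural log, averaged in the same way. Units were inferred from the values, and whether 1 read was added before the log is unknown. The deposited p-values, adjusted or not, only ranked peaks.

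Peaks were given to genes by midpoint, using the RefSeq table, which gives spans but no strand, exon or sequence. Sequences and motifs were not analysed here. A region called in all 3 lists is the overlap of 1 peak of each list on the same strand, by at least 1 bp, with all 3 midpoints in the gene. Its reads and ratios are those of the 3 whole peaks. Ratios are log2 of CLIP plus 1 over input plus 1. In 1-bin peaks the exponential of the log was returned to the whole number within 0.1%. Peaks were selected on CLIP reads and 1 group exists, so nothing was tested, and the 10 genes are given beside all genes, also those of at least 10000 bp. The rules were checked on simulated lists. Python 3.11.15, pandas 2.3.3 and scipy 1.17.1 were used.

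All 10 genes are named. Full values are given for the shared region with the highest mean ratio and that with the most reads by rank, or, without one, the peak with the most reads. Up to 5 genes per pathway list are named by number of shared regions. Further peaks and genes, the start and end comparisons and the length limit were chosen after their values were seen. Genes and lists were chosen with earlier results of these data known.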

Additional observations from a re-analysis of the deposited data

How the results depend on the processing

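Of 64 recomputed values, 51 moved by less than the spread between lists, or by under 1.5 times for counts, and 13 moved further. For the median log2 ratio this spread was an SD of 1.094, while the medians of the whole lists had an SD of 1.03. Values from 0.60 to 1.67 against 1.22 thus counted as moved by less, so this measure could hardly flag a change in that ratio. With only the 50% of peaks with the lowest p-values kept per list, 4 of the 10 genes (dnc, Pka-C1, orb2 and CaMKII) had a peak in all lists, with 3 shared regions, 22.7 peaks per list and 57.4% of the shorter list's peaks shared between lists, as a mean over pairs. With equal list lengths there were 11 shared regions, 33.3 peaks per list, a median position of 48.9% and 52.2% of peaks shared. Requiring 50% of each peak to be shared gave 7 regions and 49.3%. Leaving out each replicate gave 20 to 31 regions, 34.5 to 68.5 peaks per list, and 62.5% to 83.8% of peaks shared, against 18, 56.3 and 74.8%. Fewer or shorter lists change these numbers by construction. Counting only peaks in no other protein-coding span removed all peaks of orb2 and amn and left 6 genes with a peak in all lists. The start minus end difference ran from 0.47 to 0.89 over its alternatives, chosen after seeing the data. No test was made, paired or not, while each ratio sets a CLIP library against the input library with the same number. With the lowest number of reads at 7, 25 and 7, regions below those numbers could not be called.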
